A study of Homo sapiens with 8 samples.

Results

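ATF4, DDIT3, TRIB3, CHAC1, SESN2, ATF5, NUPR1, CEBPB, PPP1R15A and DDIT4 are transcription factors and effectors of the integrated stress response, and their RNA was followed across 3 doses of Lip-1 in K562 cells. They were taken by gene symbol as a family of regulators around ATF4 and CHOP (the protein of DDIT3), with no cut on their values. Earlier results of these data were known when they were chosen. All 10 of the 10 symbols were found among the 19447 genes of the deposited table.

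In the integrated stress response, kinases that sense misfolded protein in the endoplasmic reticulum, lack of amino acids, lack of heme or double-stranded RNA phosphorylate the translation initiation factor eIF2. Most protein synthesis then slows, while the ATF4 transcript is translated better because of its upstream reading frames. ATF4 turns on genes for amino acid supply and further regulators such as CHOP, and GADD34, the protein of PPP1R15A, returns eIF2 to its active form. In erythroid cells the heme-regulated kinase couples the same pathway to globin synthesis.

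K562 is an established human line from a chronic myeloid leukaemia, labelled wild type here. The groups were 4 control libraries without Lip-1 (labelled Day 0), 3 libraries from cells given 10 µM Lip-1 for 24 h (replicates 2 to 4) and 1 library from cells given 20 µM for 24 h (replicate 1), the treated ones labelled Day 1. The labels do not spell out Lip-1, which is often short for liproxstatin-1, a blocker of the lipid peroxidation behind ferroptosis. The labels do not say whether controls received a vehicle or whether replicates were separate cultures, so p-values measure the spread between these libraries, which may be technical. Treatment and day label coincide, and their parts cannot be told apart.

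Total counts ran from 71151415 to 141307169 per library. Erythroid markers of K562 were present in every library, with a summed level of 5831 to 10280 CPM (counts per 1000000 of the library's total) at 0 µM, 4929 to 6444 CPM at 10 µM and 3893 CPM at 20 µM over 13 genes. The genes of this list did not all go one way from 10 to 20 µM. GATA1, the erythroid master factor, had 63.5 CPM at 20 µM and at least 184 CPM in every other library. ALAS2, the first enzyme of erythroid heme synthesis, had 145 CPM at 20 µM and 17.8, 12.5 and 107 CPM in 10 µM replicates 2 to 4. In controls 1 to 4 ALAS2 had 152, 15.9, 15.5 and 154 CPM, so its level at 20 µM was not above controls 1 and 4. Sums of 8 monocyte or granulocyte markers (17.9 to 125.9 CPM in controls, 19.8 to 108 CPM at 10 µM, 22.75 CPM at 20 µM) came mostly from LYZ, and ELANE was at 0 throughout. Sums of 8 lymphocyte markers stayed within 7.57 to 23.8 CPM and those of 6 epithelial or fibroblast markers within 28.1 to 55.3 CPM. Fewer cells of a type and less RNA per cell cannot be told apart in bulk RNA, and the part of these markers in the results was not tested. In the table the columns of 10 µM replicate 4, 20 µM replicate 1 and controls 1 and 4 have names that start with letters, while 10 µM replicates 2 and 3 and controls 2 and 3 have names that start with digits. Nothing in the labels says what this pattern of names stands for, and most of the 10 genes differed along it. LYZ stood at 106 CPM in the letter-named 10 µM library and at 19.3 and 26.2 CPM in the digit-named ones, and at 122 and 124 CPM in letter-named controls and 18.3 and 17.5 CPM in digit-named ones, with 18.8 CPM at 20 µM.

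Every gene of the family was highest in the 20 µM library, and every one had a positive log2 fold change at 10 µM. At 10 µM against control, the edgeR quasi-likelihood test called 5 of 10 genes higher at an adjusted p under 0.05 (ATF4, DDIT3, TRIB3, CEBPB and PPP1R15A), where 9.34% of the 14857 genes tested were called higher. Between the 20 µM library and 10 µM, 7 of 10 were called higher, against 11.7% of all genes called higher and 26.3% called in either direction. The median log2 fold change of the 10 genes was 0.89 at the lower step and 2.63 at the upper step, beside 0.05 and 0.01 over all genes tested. The 20 µM dose has a single library, which the fit assumes to vary like the others.

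**Figure D1:**
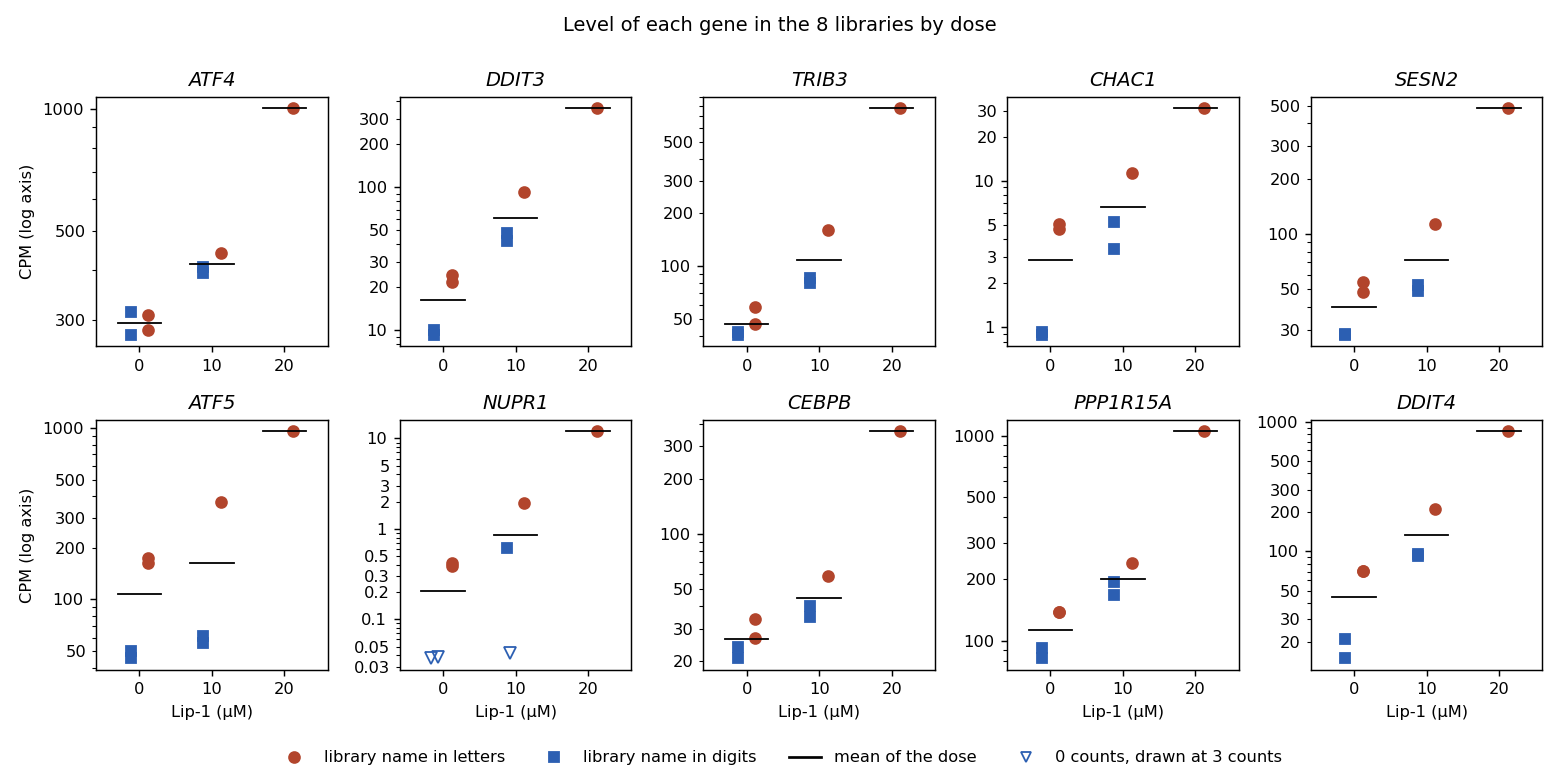
Level of each of the 10 genes in CPM (log axis, scaled per panel) in the 8 libraries, by Lip-1 dose. Points are libraries, circles for letter-named and squares for digit-named ones, black lines are dose means, and open triangles are libraries with 0 counts drawn at 3 counts. In every panel the 20 µM library lies above all others, and in all but ATF4 the letter-named controls lie above the digit-named ones.

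ATF4, the bZIP activator at the centre of the pathway (chromosome 22, 39519695 to 39522685, plus strand, GENCODE 29 on GRCh38, as are all gene positions here), moved least. It stood at 309.9, 275.8, 313.7 and 284.4 CPM in controls 1 to 4, at 407, 392.2 and 439.4 CPM in 10 µM replicates 2 to 4 and at 1005 CPM at 20 µM. The 3 dose levels did not overlap, and the controls spread by 6.33% of their mean (SD), the least of the 10 genes. The log2 fold change was 0.35 (SE 0.10, edgeR adjusted p = 0.0369) at 10 µM against control and 1.28 (SE 0.14, adjusted p = 0.000548) at 20 µM against 10 µM. The call at 10 µM was lost when any of 10 µM replicates 2, 3 and 4 or controls 1, 2 and 4 was left out (adjusted p up to 0.101, with a log2 fold change of 0.32 to 0.41 over all 8 omissions). ATF4 has 4 annotated pseudogenes named after it, and how reads shared with them were counted is not given in the sources used here.

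DDIT3 encodes CHOP, a bZIP factor that ATF4 induces and that is linked to cell death under lasting stress (chromosome 12, 57516588 to 57521737, minus strand). It had 24.2, 9.23, 9.95 and 21.7 CPM in controls 1 to 4, 48.1, 41.9 and 93.5 CPM in 10 µM replicates 2 to 4 and 359.9 CPM at 20 µM. Every 10 µM library lay above every control, and letter-named libraries lay above digit-named ones among the 10 µM libraries and among the controls. The log2 fold change was 1.79 (SE 0.37, edgeR adjusted p = 0.0118) at 10 µM against control and 2.57 (SE 0.50, adjusted p = 0.00647) at 20 µM against 10 µM. With the naming pattern of the libraries as a term the upper step was 1.93 (SE 0.15, adjusted p = 9.42e-05). At 10 µM the call was lost without replicate 4 (log2 fold change 1.38, adjusted p = 0.0515). It was kept under each of the other single-library omissions. The gene model overlaps MARS1 and MBD6 on the opposite strand, and the strand setting of the counting is not given in the sources used here. MARS1 stood at 236 to 287 CPM at 10 µM and 215 to 246 CPM in controls (log2 fold change 0.08, edgeR adjusted p = 0.639). At 20 µM MARS1 had 560 CPM and was higher than at 10 µM by 1.08 (adjusted p = 0.00108), so the neighbour rose at the step where DDIT3 rose most. MARS1 is also one of the other ATF4 targets counted below. MBD6 had 115 CPM at 20 µM, 55.3 to 92.5 CPM at 10 µM and 34 to 81.6 CPM in controls. Whether DDIT3 and these neighbours shared reads was not tested.

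DDIT3, CHAC1 and PPP1R15A held a stress-factor motif at every start site listed for them, and the 250 bases before a start are therefore shown for these 3 genes, 5′ to 3′ on the gene's strand, from RefSeq on GRCh38.p14. Capitals mark matches, on either strand, to the motif bound by C/EBP-ATF dimers (TGATGNAA), the cyclic AMP response element (TGACGTCA) or the AP-1 motif (TGANTCA), 3 motifs whose matches do not overlap here.
DDIT3, chr12:57520515-57520764, minus strand: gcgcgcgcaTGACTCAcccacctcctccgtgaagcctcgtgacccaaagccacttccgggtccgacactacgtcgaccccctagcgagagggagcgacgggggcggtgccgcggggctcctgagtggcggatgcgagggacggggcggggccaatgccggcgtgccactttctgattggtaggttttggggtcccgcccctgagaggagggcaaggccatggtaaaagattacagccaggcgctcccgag
CHAC1, chr15:40953221-40953470, plus strand: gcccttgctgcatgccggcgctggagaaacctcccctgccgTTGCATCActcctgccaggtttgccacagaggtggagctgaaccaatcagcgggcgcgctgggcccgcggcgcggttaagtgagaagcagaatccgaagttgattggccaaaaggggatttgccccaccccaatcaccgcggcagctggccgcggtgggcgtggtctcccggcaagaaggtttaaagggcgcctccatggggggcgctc
PPP1R15A, chr19:48872171-48872420, plus strand: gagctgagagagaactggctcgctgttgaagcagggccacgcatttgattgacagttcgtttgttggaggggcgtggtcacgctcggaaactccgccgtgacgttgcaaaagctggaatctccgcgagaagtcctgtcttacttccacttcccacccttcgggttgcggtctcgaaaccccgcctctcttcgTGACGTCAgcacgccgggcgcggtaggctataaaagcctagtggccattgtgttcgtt
The windows scanned ran from 250 bases before to 50 after each RefSeq start, and 9 of the 10 genes had an entry. The C/EBP-ATF motif was found in 1 of the 9, CHAC1, on the reverse strand at position -209 from the start, and in 3.67% of the 15096 genes of the table with such a window. The cyclic AMP response element was found in 1 of the 9, PPP1R15A, at position -58, and in 3.03% of all. The AP-1 motif was found in 2 of the 9, DDIT3 at position -241 and 1 of the listed starts of ATF5 at position -188, and in 8.17% of all. Of the more general motifs, CCAAT was found in 5 of the 9 and in 42.5% of all, TATAAA in 3 of the 9 and in 12.4% of all, and the endoplasmic reticulum stress element in 0 of the 9 and in 0.139% of all. A match is a string of letters and not a measured site, and other elements may lie outside these windows.

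CEBPB encodes a C/EBP factor that pairs with ATF4 and with CHOP (chromosome 20, 50190734 to 50192689, plus strand). It stood at 34.1, 23.9, 20.8 and 26.8 CPM in controls 1 to 4, at 40, 34.8 and 58.6 CPM in 10 µM replicates 2 to 4 and at 362.7 CPM at 20 µM. The lowest 10 µM library was only just above the highest control. CEBPB rose by 0.62 on the log2 scale at 10 µM (SE 0.18, edgeR adjusted p = 0.0423) and by 3.03 at 20 µM against 10 µM (SE 0.25, adjusted p = 0.000207), with the smallest p of the 10 genes at that step. At 10 µM its call was lost without 10 µM replicate 2 or 4 or control 2, 3 or 4 (log2 fold change 0.41 to 0.75 over all 8 omissions) and under limma-voom (adjusted p = 0.0525). An antisense gene, CEBPB-AS1, overlaps it.

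ATF5, a bZIP relative of ATF4 that is also controlled by upstream reading frames (chromosome 19, 49928702 to 49933935, plus strand), followed the library names more than the lower dose. It had 173.8, 50, 45.3 and 163.1 CPM in controls 1 to 4, 61.4, 55.9 and 369.4 CPM in 10 µM replicates 2 to 4 and 954.9 CPM at 20 µM. Digit-named 10 µM libraries lay below letter-named controls, so the groups overlapped. The test did not call it at 10 µM (log2 fold change 0.45, SE 0.70, edgeR adjusted p = 0.708), and the sign turned to -0.96 without replicate 4 (adjusted p = 0.316). At 20 µM against 10 µM it stood at 2.59 (SE 0.97, adjusted p = 0.0791), without 10 µM replicate 4 at 3.97 (adjusted p = 0.00709), and with the naming pattern as a term at 1.73 (adjusted p = 0.00125). NUP62, which overlaps ATF5 on the opposite strand, had its lowest level, 89.7 CPM, in the 20 µM library, where ATF5 was highest, and 219 to 242 CPM in controls. IL4I1, also on the opposite strand, went the other way, with 2.63 CPM at 20 µM, 0.581 to 0.729 CPM at 10 µM and 0.197 to 0.92 CPM in controls.

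NUPR1, a small stress-induced chromatin protein (chromosome 16, 28532708 to 28539174, minus strand), was the sparsest of the 10 genes. It had 60, 0, 0 and 36 counts in controls 1 to 4, 45, 0 and 140 counts in 10 µM replicates 2 to 4 and 1491 counts at 20 µM, the last being 12 CPM. The 2 digit-named controls and 1 digit-named 10 µM library were at 0, which allows a level of up to 0.0369, 0.0379 and 0.0422 CPM (3 counts, counting error only). It passed the filter on low values in the fit with 3 levels, where a single library suffices, and also in the fit with 2 levels. NUPR1 was called at neither dose step (edgeR adjusted p = 0.42 and 0.184).

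TRIB3, a pseudokinase induced by CHOP and ATF4 that restrains both ATF4 and the kinase AKT (chromosome 20, 362835 to 397559, plus strand), gave the steadiest call at 10 µM. It stood at 58.5, 42.5, 40.7 and 47 CPM in controls 1 to 4, at 85, 80.4 and 159.9 CPM in 10 µM replicates 2 to 4 and at 779.2 CPM at 20 µM. All 10 µM libraries lay above all controls. It rose by 1.07 on the log2 scale at 10 µM (SE 0.22, edgeR adjusted p = 0.0113) and by 2.86 at 20 µM against 10 µM (SE 0.30, adjusted p = 0.000509). Both calls were kept under every single-library omission, with adjusted p of 0.0102 to 0.0356 at 10 µM.

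CHAC1 degrades glutathione inside the cell and is a target of ATF4 (chromosome 15, 40952962 to 40956519, plus strand). It had 5.10, 0.936, 0.885 and 4.68 CPM in controls 1 to 4, 5.24, 3.42 and 11.3 CPM in 10 µM replicates 2 to 4 and 31.4 CPM at 20 µM. The letter-named controls stood above one of the digit-named 10 µM libraries, so the groups overlapped. Neither step was called (log2 fold change 1.08, SE 0.64, edgeR adjusted p = 0.285 at 10 µM, and 2.26, SE 0.89, adjusted p = 0.0945 at 20 µM against 10 µM). With the naming pattern as a term the upper step was 1.10 (SE 0.39, adjusted p = 0.0636).

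PPP1R15A encodes GADD34, the stress-induced subunit that directs a phosphatase to eIF2 (chromosome 19, 48872392 to 48876057, plus strand). It stood at 137.9, 81.9, 92.6 and 138.1 CPM in controls 1 to 4, at 166.3, 193.1 and 239.3 CPM in 10 µM replicates 2 to 4 and at 1050 CPM at 20 µM. The dose levels did not overlap. It rose by 0.70 on the log2 scale at 10 µM (SE 0.19, edgeR adjusted p = 0.0302) and by 2.40 at 20 µM against 10 µM (SE 0.26, adjusted p = 0.000545). The call at 10 µM was lost without 10 µM replicate 3 or 4 or control 2 or 3 (log2 fold change 0.58 to 0.80 over all 8 omissions, adjusted p up to 0.12). PPP1R15B, its constitutive relative, stood at 0.15 at 10 µM against control (adjusted p = 0.492) and was higher by 1.15 at 20 µM against 10 µM (adjusted p = 0.00298).

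SESN2 and DDIT4 (also called REDD1) both restrain the growth kinase mTORC1. SESN2, a leucine sensor (chromosome 1, 28259527 to 28282491, plus strand), had 54.5, 28.2, 28.4 and 48.5 CPM in controls 1 to 4, 49, 52.7 and 114.1 CPM in 10 µM replicates 2 to 4 and 485.8 CPM at 20 µM. Only 10 µM replicate 4 lay above every control, and SESN2 was not called there (log2 fold change 0.72, SE 0.31, edgeR adjusted p = 0.142), though it was called by DESeq2 (adjusted p = 0.0419). At 20 µM against 10 µM it rose by 2.77 (SE 0.43, edgeR adjusted p = 0.0024). DDIT4 (chromosome 10, 72273920 to 72276036, plus strand) had 70.4, 21.3, 15 and 71 CPM in controls 1 to 4, 91.6, 95.7 and 211.9 CPM in 10 µM replicates 2 to 4 and 841.1 CPM at 20 µM. Its groups did not overlap, yet the spread of the controls was 68.5% of their mean, and it missed the threshold at 10 µM (log2 fold change 1.47, SE 0.52, edgeR adjusted p = 0.0822). At 20 µM against 10 µM it rose by 2.67 (SE 0.72, adjusted p = 0.0243), a call lost without 10 µM replicate 2 or 3 (adjusted p up to 0.0814). With the naming pattern as a term that step was 1.71 (SE 0.27, adjusted p = 0.00186). DDIT4-AS1 overlaps DDIT4 on the opposite strand.

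Across the family, 6 of 10 genes had every 10 µM library above every control, where 21.8% of all genes tested did. At the upper step the 20 µM library lay above every 10 µM library in 10 of 10, against 40.4% of all genes. It was at least 2 times the 10 µM mean in 10 of 10, against 18.6% of all. The ratio of the 20 µM level to the mean 10 µM level in CPM ran from 2.44 for ATF4 through 4.72 for CHAC1, 5.26 for PPP1R15A, 5.89 for DDIT3 and ATF5, 6.32 for DDIT4, 6.75 for SESN2 and 7.19 for TRIB3 to 8.16 for CEBPB, with 14.1 for the sparse NUPR1. Set against the letter-named 10 µM library alone, which like the 20 µM library has a name in letters, the ratio was smaller for every gene and the order was another. It was 2.29 for ATF4, 2.58 for ATF5, 2.78 for CHAC1, 3.85 for DDIT3, 3.97 for DDIT4, 4.26 for SESN2, 4.39 for PPP1R15A, 4.87 for TRIB3, 6.19 for CEBPB and 6.23 for NUPR1. The order also differed at the lower step, where the ratio of the mean 10 µM level to the mean control level was 3.76 for DDIT3, 2.99 for DDIT4, 2.30 for TRIB3, 2.29 for CHAC1, 1.80 for SESN2, 1.77 for PPP1R15A, 1.68 for CEBPB, 1.5 for ATF5 and 1.40 for ATF4, with 4.16 for NUPR1. Both ratios share the 10 µM libraries.

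**Figure D2:**
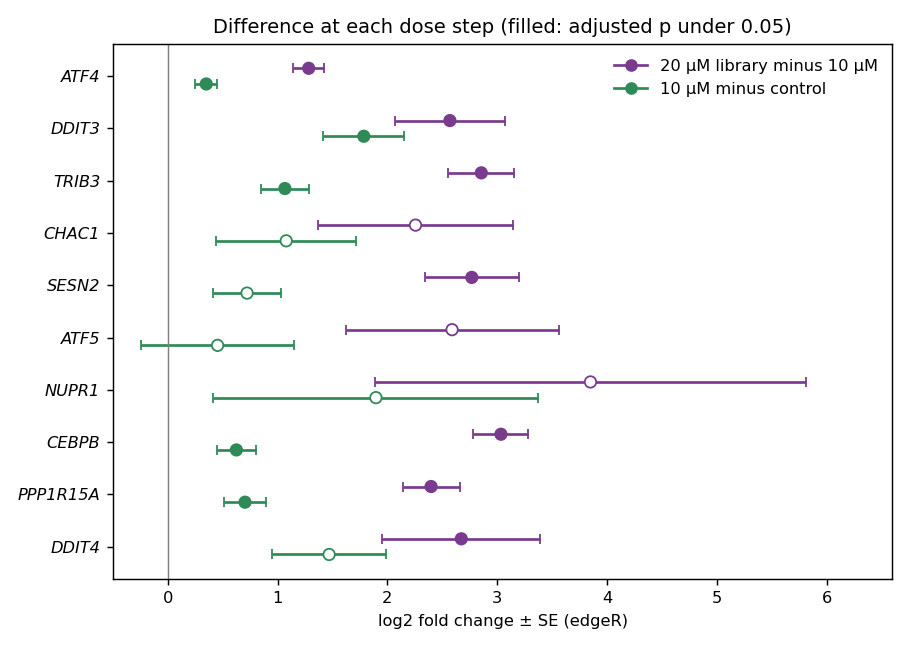
Log2 fold change with its SE (edgeR, fit with 3 levels) for each gene at 20 µM minus 10 µM and at 10 µM minus control. Filled points passed an adjusted p of 0.05, 7 at the upper step and 5 at the lower, and at both steps ATF4 had short bars and NUPR1 the longest.

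With all 4 treated libraries set against the 4 controls and no block for replicate number, DDIT3 alone was called (log2 fold change 2.96, SE 0.73, edgeR adjusted p = 0.034). Of 13101 genes, 7.47% were called higher in that fit, 6.69% lower and 14.2% in either direction. TRIB3 (2.44, adjusted p = 0.0516) and DDIT4 (2.72, adjusted p = 0.0583) came next, and the fold changes ran from 0.80 for ATF4 to 4.05 for NUPR1. Pooling puts into 1 group a 20 µM library and 10 µM libraries of which the highest was 2.29 to 6.23 times below it. DDIT3 lost this call without control 1, 2, 3 or 4 or without 10 µM replicate 4 (adjusted p up to 0.11). A fit that added a block for replicate number called 4 of 10, where 11.1% of all genes were higher and 10.4% lower, DDIT3 (adjusted p = 0.0128), DDIT4 (0.0129), CHAC1 (0.0132) and NUPR1 (0.0355). Without the 20 µM library the same 5 genes as in the fit with 3 levels were called.

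Both letter-named controls lay above both digit-named controls in 9 of the 10 genes, all but ATF4, where 36.6% of all genes tested did. Mean control levels were 168.5 CPM in letter-named and 47.6 CPM in digit-named libraries for ATF5, a ratio of 3.54. For CHAC1 the ratio was 5.37, for DDIT4 3.89, for DDIT3 2.39, for SESN2 1.82, for PPP1R15A 1.58, for CEBPB 1.36, for TRIB3 1.27 and for ATF4 1.01. In the fit with 3 dose levels and this pattern as a term, letters were higher in 7 of 10 genes (edgeR adjusted p of 0.000265 for ATF5 to 0.0453 for CEBPB), where 5.08% of all genes were, and ATF4 (-0.03, SE 0.09, adjusted p = 0.856), TRIB3 (0.50, adjusted p = 0.0602) and NUPR1 (adjusted p = 0.0846) did not pass. This term was tested after the values had been seen.

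With the naming pattern in the fit, 9 of 10 genes were called higher at 10 µM against control, all but NUPR1 (adjusted p = 0.0602), where 15.9% of all genes were. The log2 fold changes were 2.00 (SE 0.10) for DDIT3, 1.92 (SE 0.17) for DDIT4, 1.68 (SE 0.25) for CHAC1, 1.10 (SE 0.14) for TRIB3, 0.83 (SE 0.10) for SESN2, 0.80 (SE 0.10) for PPP1R15A, 0.68 (SE 0.11) for CEBPB, 0.50 (SE 0.16) for ATF5 and 0.35 (SE 0.09) for ATF4. CHAC1 (adjusted p = 0.00135), SESN2 (0.000512), ATF5 (0.039) and DDIT4 (0.000141) passed with this term and not without it. At 20 µM against 10 µM the same fit called 8 of 10, with ATF5 added (1.73, adjusted p = 0.00125), where 11.8% of all genes were called higher. The upper step was smaller with the term in 9 of 10 genes, all but ATF4 (1.31 in place of 1.28). It was smaller by over 1.5 times in fold for CHAC1 (1.10 in place of 2.26), NUPR1 (1.82 in place of 3.85), DDIT4 (1.71 in place of 2.67), ATF5 (1.73 in place of 2.59) and DDIT3 (1.93 in place of 2.57), on the log2 scale. In the pooled comparison it called 6 of 10, against 13.6% of all.

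Within each kind of name, the ratio of the 10 µM level to the mean control level was 4.07 in letter-named and 4.69 in digit-named libraries for DDIT3, and 1.48 and 1.36 for ATF4. It was 2.31 in letter-named and 4.75 in digit-named libraries for CHAC1, and 3.00 and 5.15 for DDIT4. It was 3.03 and 1.99 for TRIB3, 2.22 and 1.80 for SESN2, 2.19 and 1.23 for ATF5, 1.93 and 1.67 for CEBPB, and 1.73 and 2.06 for PPP1R15A, letter-named first in each pair. Every ratio was above 1. The interaction of naming pattern and 10 µM passed an adjusted p of 0.05 for 0 of 10 genes by edgeR, and for 0.0471% of all genes. CHAC1, TRIB3, ATF5 and DDIT4 had an unadjusted p under 0.05, a threshold at which the share of all genes was not taken. The smallest p was that of ATF5 (adjusted p = 0.499), and the test rests on 1 letter-named library at 10 µM.

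**Figure D3:**
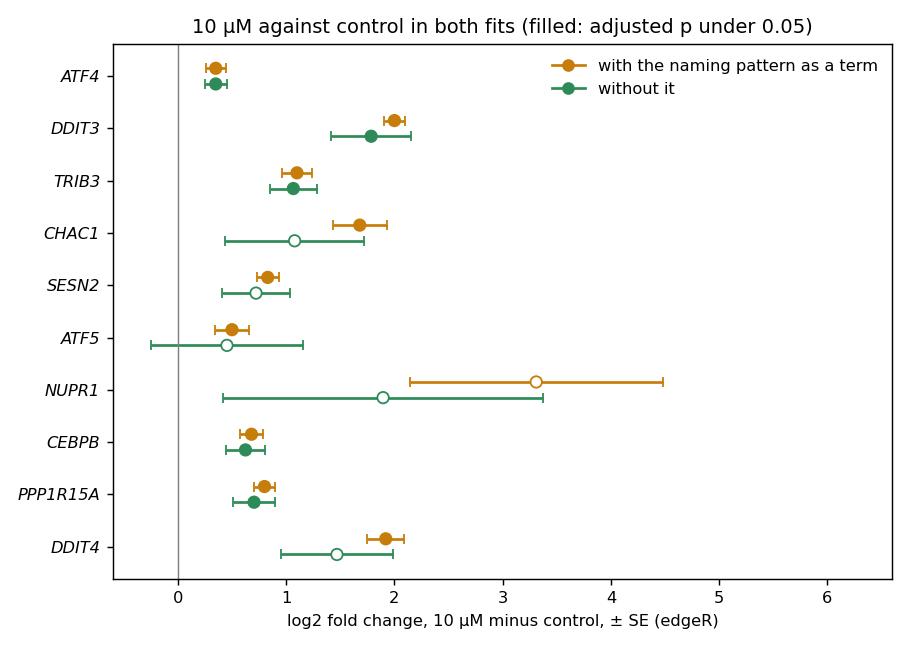
Log2 fold change of each gene at 10 µM minus control with its SE (edgeR), with the naming pattern of the libraries as a term and without it. Filled points passed an adjusted p of 0.05, 9 with the term and 5 without, and the bars of CHAC1, SESN2, ATF5 and DDIT4 are much shorter with it.

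To compare levels between genes, CPM was divided by the length of all exons of a gene in kilobases. In controls ATF4 led at 118 ± 7.45 CPM per kilobase (SD, n = 4), above the range of every other gene. PPP1R15A (47.4 ± 12.5), ATF5 (42 ± 27.2), DDIT4 (25.4 ± 17.4), TRIB3 (16.3 ± 2.77), CEBPB (13.5 ± 2.91), DDIT3 (12.5 ± 5.97) and SESN2 (11.6 ± 3.94) followed, each overlapping the next in its range over libraries. CHAC1 (1.41 ± 1.12) and NUPR1 (0.0368 ± 0.0426) stood apart below. At 10 µM ATF4 still led at 164 ± 9.60 CPM per kilobase (n = 3), and the ranges of PPP1R15A (83.9 ± 15.5), DDIT4 (76.1 ± 39.1), ATF5 (63 ± 69.7), DDIT3 (46.8 ± 21.6), TRIB3 (37.4 ± 15.4), CEBPB (22.7 ± 6.40) and SESN2 (20.8 ± 10.6) again overlapped from each to the next. In the 20 µM library DDIT4 (481 CPM per kilobase) and PPP1R15A (442) stood above ATF4 (400), ATF5 (371), DDIT3 (275), TRIB3 (269), CEBPB (185), SESN2 (140.7), CHAC1 (15.2) and NUPR1 (2.16), an order that rests on 1 library.

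**Figure D4:**
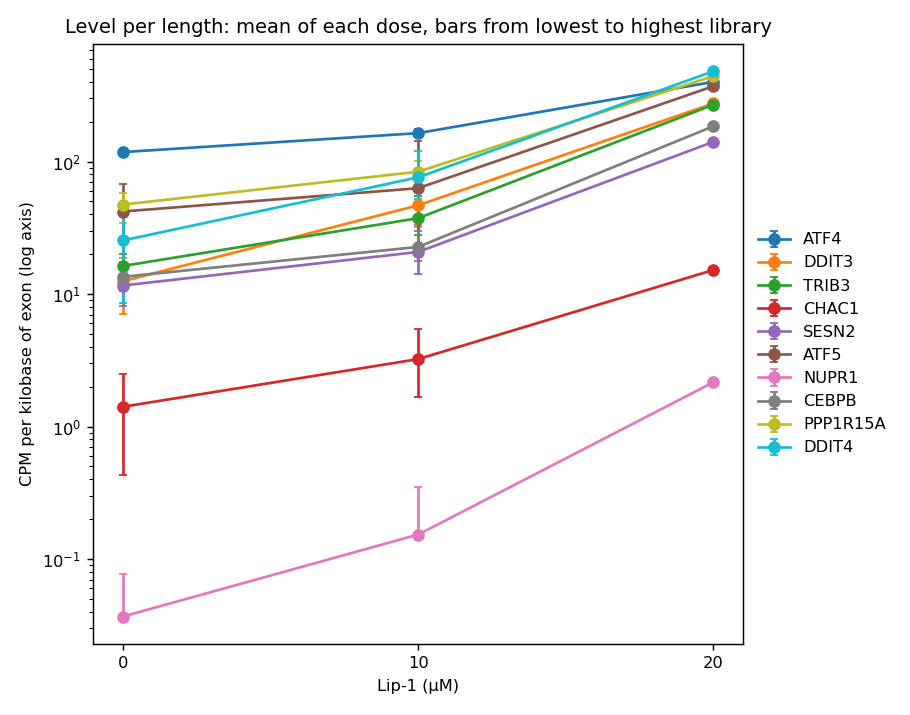
Level of each gene in CPM per kilobase of exon (log axis) against Lip-1 dose. Points are dose means, bars run from the lowest to the highest library (no lower bar where a library was at 0), and the 20 µM point is a single library. ATF4 is the highest line at 0 and 10 µM and lies below DDIT4 and PPP1R15A at 20 µM.

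Genes around the family were counted in lists of the pathway. Of 43 other ATF4 targets, which supply amino acids, charge transfer RNAs or signal stress, 19 rose and 2 fell at 10 µM against control (edgeR adjusted p under 0.05, 9.34% and 9.79% of all genes), with a median log2 fold change of 0.54 (also 0.54 without the 1 gene at 0 in every control) beside 0.05 over all genes. At 20 µM against 10 µM 36 rose and 0 fell (11.7% and 14.6% of all genes), with a median of 1.51 (1.47 without that gene) beside 0.01. The 3 with the smallest p at 10 µM were NDRG1 (log2 fold change 2.03, SE 0.13, adjusted p = 0.000171), KLHL24 (2.63, SE 0.27, adjusted p = 0.000863) and GDF15, a stress cytokine (2.48, SE 0.30, adjusted p = 0.00176). Of 9 genes of cell death and redox balance linked to CHOP, 4 rose and 0 fell at 10 µM (9.34% and 9.79% of all genes). Of these, BBC3 (2.79, adjusted p = 0.000775) and PMAIP1 (1.22, adjusted p = 0.00956) encode activators of apoptosis, TNFRSF10B (0.94, adjusted p = 0.00785) encodes death receptor DR5, and ERO1B (0.83, adjusted p = 0.00899) an oxidase of the endoplasmic reticulum. The other 5 were not called at 10 µM (adjusted p of 0.163 to 0.907). They were BCL2 (0.49), ERO1A (0.30), BCL2L11 (0.05), TXNIP (-0.11) and TNFRSF10A (-0.40). With the naming pattern as a term 5 rose and 1, TNFRSF10A (-0.50), fell (15.9% and 15.5% of all genes). At 20 µM against 10 µM 3 of the 9 rose and 0 fell (11.7% and 14.6% of all genes). BBC3 was not called at that step (1.13, adjusted p = 0.0559). TNFRSF10B rose further, by 3.29, at 20 µM against 10 µM (adjusted p = 0.000112), to 382.8 CPM at 20 µM, against 39.4 ± 11.8 CPM at 10 µM (SD, n = 3).

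Of 23 genes for eIF2, its kinases, its exchange factor eIF2B and its phosphatase, 1 rose and 5 fell at 10 µM (9.34% and 9.79% of all genes), with a median of -0.06. The gene that rose was EIF2AK3, which encodes PERK, the kinase that senses the endoplasmic reticulum. It stood at 30.3 ± 7.57 CPM at 10 µM (SD, n = 3), against 15.3 ± 1.73 CPM in controls (n = 4), higher by 0.86 on the log2 scale (SE 0.15, adjusted p = 0.00684 by edgeR). In the 20 µM library it reached 99.7 CPM. The other 3 kinases, EIF2AK1 (heme-regulated, -0.01), EIF2AK2 (activated by double-stranded RNA, 0.22) and EIF2AK4 (amino acid shortage, -0.06), were called at neither step (adjusted p of 0.33 to 0.953 at 10 µM). EIF2B4 (-0.66, adjusted p = 0.00492) and EIF2B1 (-0.63, adjusted p = 0.0105), subunits of eIF2B, fell at 10 µM.

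Of 22 genes of the ATF6 and IRE1 arms of the response to unfolded protein, 3 rose and 4 fell at 10 µM. These are small counts, set beside 9.34% and 9.79% of all genes, and the median was 0.03. At the upper step 17 rose and 0 fell, against 11.7% and 14.6% of all genes, with a median of 0.85. The difference between the steps was not tested. HERPUD1, a component of degradation at the endoplasmic reticulum, rose at both steps (1.14 and 2.67, adjusted p = 0.00118 and 9.07e-05). SDF2L1 (-0.73, adjusted p = 0.00569) and PDIA4 (-0.41, adjusted p = 0.0151), a chaperone cofactor and a disulfide isomerase, fell at 10 µM and rose by 0.87 and 0.49 at the upper step. HSPA5, the main chaperone there, stood at 0.14 at 10 µM (adjusted p = 0.636) and rose by 2.22 at the upper step (adjusted p = 0.000519).

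Of 15 tested relatives of the 10 genes, 5 rose and 1 fell at 10 µM (9.34% and 9.79% of all genes). ATF3 and CEBPG also stand among the ATF4 targets. ATF3, a bZIP repressor that ATF4 induces (2.65, SE 0.45, edgeR adjusted p = 0.00607), TRIB1 (1.23, SE 0.18, adjusted p = 0.00314) and CEBPG, a partner of ATF4 (0.67, SE 0.14, adjusted p = 0.0129), rose there and again at 20 µM against 10 µM (3.93, 1.43 and 1.94). TRIB2 and CHAC2 stood at -0.43 and -0.33 at 10 µM (adjusted p = 0.123 and 0.276) and fell by 1.09 and 1.47 at the upper step (adjusted p = 0.0201 and 0.0097). TRIB2, CHAC2, PPP1R15B, PMAIP1, HSPA5 and the 3 kinases other than EIF2AK3 were picked after their values were seen. Of 25 tested genes of mTORC1 and its amino acid sensing, 2 rose and 4 fell at 10 µM. These are small counts, set beside 9.34% and 9.79% of all genes, and the median was 0.04. RRAGD, a Rag GTPase, rose by 1.68 (adjusted p = 0.00476), while SEC13 (-0.53, adjusted p = 0.00672) and RPTOR (-0.49, adjusted p = 0.00884) fell. At the upper step 2 of the 25 rose and 2 fell (11.7% and 14.6% of all genes). SEC13 rose there by 0.78 (edgeR adjusted p = 0.00366), while RRAGD (0.49) and RPTOR (-0.17) were not called.

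**Figure D5:**
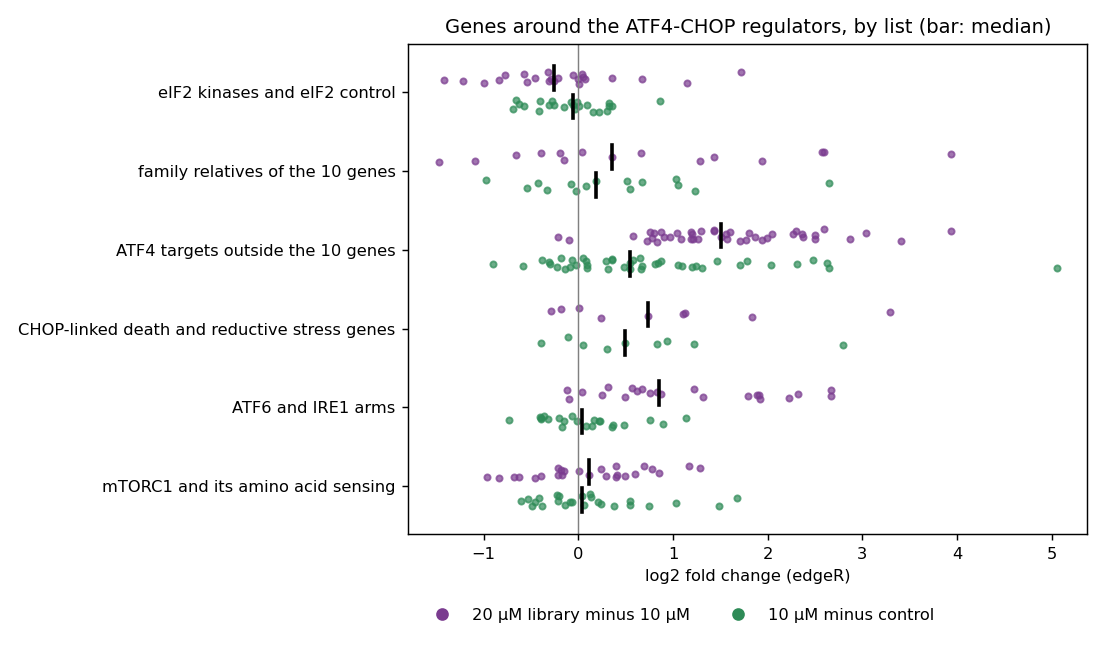
Log2 fold change (edgeR) of the tested genes of 6 lists around the 10 genes, at 20 µM minus 10 µM and at 10 µM minus control. Points are genes and black bars list medians, and the ATF4 targets have the highest medians of the 6 lists at both steps, 1.51 and 0.54. The rightmost point is the gene at 0 in every control, whose fitted value depends on the prior count.

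Among 10670 other genes with a mean log2 CPM of at least 1, the profile most like the mean of the 10 genes over the 8 libraries was that of VIM, which encodes the intermediate filament vimentin, with a Pearson r of 0.994. CCDC71L (0.993), FOSL2, an AP-1 factor (0.990), ACOX3 (0.988) and LRRC8D (0.988) followed. Over the 7 libraries without 20 µM the most alike were FKBP9 (0.995), RAP1GAP (0.995), ANAPC16 (0.990), ATP1B1 (0.988) and MAGI2 (0.988). None of the first 5 was among them, though these kept an r of 0.969 (FOSL2) to 0.983 (VIM) over the 7 libraries. FKBP9 had an r of 0.661 over all 8. The mean profile, in log2 units relative to the control mean, was 0.72, -0.67, -0.65 and 0.60 in controls 1 to 4, 0.84, 0.29 and 1.85 in 10 µM replicates 2 to 4 and 3.87 at 20 µM. The likeness was taken over libraries that share the dose and naming groups, and is a description only.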

How the data were processed

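RNA of 8 K562 libraries was sequenced after removal of ribosomal RNA and random priming, per the labels' protocols. The deposited table holds a whole count for each gene in each library, not normalized. The submitters' processing notes list hg38 and the tools HISAT2, StringTie, limma, DESeq2 and bcl2fastq 2.0, without saying what each did. Low counts are not spaced as single reads (2958 entries at 4 counts, 401 at 1), so floors and count tests carry that limit. Lines with no gene name (9) were dropped.

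CPM was 1000000 times the count over the library total. Genes were filtered with filterByExpr, scaled by TMM (factors 0.9003 to 1.085) and tested with edgeR 4.0.16 (glmQLFit, glmQLFTest, two-sided, Benjamini-Hochberg at 0.05) in R 4.3.3. Both dose steps came from 1 fit with 3 levels, and the pooled comparison from 1 with 2 levels. SE is the log2 fold change over the square root of F. Alternatives used DESeq2 1.42.0, limma 3.58.1 (voom), other scalings and filters, covariates and omitted libraries. The fits were tested on simulated data.

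Same-numbered control and treated libraries correlated in their deviations across genes (r of 0.20 to 0.46 in 4 pairs) when centred on treated and control means. The numbers may therefore pair the samples in the pooled comparison. Its main fit had no block for replicate number, and the fit with the block is given beside it. Pairs of other numbers among digit-named libraries reached 0.26 and 0.16, so number and naming pattern cannot be told apart in this check. Centred on dose groups, the 3 same-numbered pairs were at 0.08, 0.21 and 0.24, which does not settle the pairing for the dose steps.

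The 10 genes and the lists were chosen with earlier results of these data known. Named list genes are the 3 with the smallest p at 10 µM in each list, besides those said to be picked later. Of the list linked to CHOP all 9 are named. Likeness takes the 5 genes with the highest r over 8 and over 7 libraries. Sequences are RefSeq's.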

Additional observations from a re-analysis of the deposited data

How the results depend on the processing

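No member's direction changed under the alternatives run except ATF5 at 10 µM, which ran from -0.96 (without 10 µM replicate 4) to 0.82 with single libraries left out. At 10 µM against control the 2842 genes and 5 members called became 4657 and 9 with the replicate block, 4665 and 9 with the naming pattern, and 1002 genes with letter-named libraries alone, a fit added after the data were seen that leaves 4 libraries. The letter-named fit has 1 library at 10 µM, so its number of calls says little. Its log2 fold changes were positive for every member, from 0.39 (ATF4) to 2.05 (NUPR1). Digit-named libraries alone, a fit also added after the data were seen, gave 3137 genes and 7 members. ATF4 was not called there (log2 fold change 0.28, edgeR adjusted p = 0.134). Leaving out single libraries gave 1364 to 3021 genes and 1 to 5 members, with 1 (TRIB3) without 10 µM replicate 4. Whether the replicate numbers pair samples at this step is not settled, so the block counts are a hint only. At 20 µM against 10 µM omissions gave 2857 to 4300 genes and 6 to 8 members, against 3903 and 7. In the pooled comparison the 1855 genes and 1 member became 3395 and 6 by DESeq2, 2815 and 4 with the replicate block, 3348 and 6 with the naming pattern and 64 to 3021 genes and 0 to 5 members with single libraries left out. There 2 members were called with the CPM filter, where 2035 genes were called in all, and 0 by limma-voom, where 1657 were. The causes were not tested. NUPR1 had 0 to 140 counts per library below 20 µM, and a library at 0 allows up to 3 counts.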
